A study of Homo sapiens with 12 samples.

Results

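*NEDD4* is the gene of a ubiquitin ligase, and it is 1 of the 10976 genes with a deposited value in the RNA-seq of cerebral organoids (COs). It was chosen by its symbol, for the values it had in these libraries across line and day, so its own levels are given here as a description with no test. Their source was H1, a line of human embryonic stem cells (WT), or 1 of 2 lines made from it by editing *c-JUN* (gene symbol *JUN*) with CRISPR-Cas9, KO#2 and KO#10. Each line gave 2 libraries of total RNA on day 12 and 2 on day 24, so that each day had 2 WT and 4 KO libraries, 12 in all. Each edited line is 1 clone, each library pooled 3 to 4 COs, and all lines went through neural and CO induction with no other treatment given in the labels. Nothing in the labels says whether the replicates were separate differentiations, so *p*-values measure the spread between these libraries, which may be technical. The fits took the 4 KO libraries of a day as 1 group with no term for clone. Their *p*-values thus do not allow for libraries of 1 clone being alike.

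The NEDD4 protein attaches ubiquitin to other proteins. It carries a C2 domain that binds membranes, WW domains that hold short proline-rich PY motifs of substrates and adaptors, and a catalytic HECT domain, which takes ubiquitin from an E2 enzyme and passes it to the substrate. Many of its known substrates are membrane receptors and channels, which are then sorted into endosomes and lysosomes. In the nervous system it is known for work on the growth of axons and dendrites, and its name comes from a screen for genes expressed in mouse neural precursor cells and lowered later in development.

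The deposited unit is a whole-number normalized score per gene, not a count. Every library had a median score of 17 and a highest score of 5585, so the scores show the place of a gene within its library more than an amount of RNA, and the sequencing depth is unknown. The scores are not stated to be per length, so a place among genes is not a ranking of molecule numbers. *JUN*, the edited gene, had scores of 4 and 8 in the WT libraries and 13 to 19 in KO at day 12, and 13 and 15 in the WT libraries and 29 to 39 in KO at day 24. The day 24 difference was called higher in KO (log2 fold change 1.25 on log2(score + 1), SE 0.17, adjusted *p* = 0.0184 by limma), a call lost in 4 of the 6 fits that left out a library of that day (adjusted *p* to 0.231). *JUN* was thus not lower in the libraries labelled KO, but a score over the whole gene does not show whether its transcript was edited or gave protein. All directions below rest on the labels, and KO stands for the libraries labelled KO.

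*NEDD4* (ENSG00000069869) is listed at chr15:55826922-55993660 on the minus strand. These coordinates fit GRCh38, where GENCODE release 29 places the gene at chr15:55826922-55993746 with 13 transcripts, 5 of them protein coding, of 5707 to 7235 exonic bases. No other GENCODE gene overlaps it. The scores were given per gene, so they do not say which transcript was present. The coding transcripts begin at an outer start, base 55993746, and at a group of inner starts between bases 55915654 and 55917131. The bases before each start are printed because c-JUN is a subunit of the transcription factor AP-1, which binds the TRE letters TGAGTCA, which read TGACTCA on the other strand. In the RefSeq promoter windows (build GRCh38.p14, 250 bases before to 50 after a start), these letters were found at 1 site of *NEDD4*, before the inner start, at chr15:55917136-55917142. Capitals mark the TRE letters in the lines below, both of which read 5′ to 3′ on the minus strand.
Inner start, chr15:55917132-55917381: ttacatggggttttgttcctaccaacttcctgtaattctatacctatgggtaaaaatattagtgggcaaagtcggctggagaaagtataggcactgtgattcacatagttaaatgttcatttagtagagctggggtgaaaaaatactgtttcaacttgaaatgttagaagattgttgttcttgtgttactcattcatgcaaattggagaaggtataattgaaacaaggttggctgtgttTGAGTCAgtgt
Outer start, chr15:55993747-55993862: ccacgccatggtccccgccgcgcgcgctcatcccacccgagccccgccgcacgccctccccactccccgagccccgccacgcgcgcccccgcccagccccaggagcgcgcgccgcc

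The 2 stretches differ in base composition and in length. The RefSeq start of the outer window, base 55993612, lies inside the GENCODE outer start. Only 116 bases before the GENCODE start were therefore searched. The 250 bases before the inner start were 36.4% G and C with 1 CG pair, and the 116 bases before the outer start were 84.5% G and C with 20 CG pairs. Neither overlapped an exon of *NEDD4*. The TRE letters began 11 bases before the inner start. A second RefSeq start, 5 bases farther out, takes in the same site, which begins 6 bases before that start and ends on its first base. Of the 13346 windows of genes in the files, 3.10% held the TRE letters on either strand, and of all 35116 windows 4.95% did. Counted by gene, 4.32% of the 8907 genes in the files with a window held them, and 6.05% of all 27305 genes. The related CRE letters TGACGTCA were in no window of *NEDD4*, against 3.03% of the windows of genes in the files and 4.27% of those genes. Of the other measured genes of the *NEDD4* family, *WWP1* had no window to search, and the rest had neither motif in theirs. A match of letters is a description of the sequence and says nothing of binding in COs.

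At day 12 *NEDD4* was among the highest scores of every library. It scored 1204 and 1204 in the WT libraries, 5585 and 5585 for KO#2, and 5585 and 1204 for KO#10. Thus 3 of the 4 KO libraries stood at the highest score the files hold, and KO#10 replicate 2 was equal to both WT libraries, so that the 2 groups touched. On the log2(score + 1) scale, on which all folds below are given, KO was 1.66 above WT (3.16-fold), with KO#2 higher by 2.21 and KO#10 by 1.11. The group means were 1204 ± 0 for WT (SD, n = 2) and 4490 ± 2190 for KO (SD, n = 4).

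At day 12 *NEDD4* took only 2 scores, 1204 and 5585, with other genes between them. A score of 1204 put *NEDD4* in place 20 from the top of 10976 genes, equal with 3 others, and the next score above it in those libraries was 3030. A score of 5585 put it in place 1, equal with 8 or 9 others, and the next score below was 3048. Both places lie above more than 99.7% of the genes. A gene at 5585 could not score higher in these files, whatever its amount of RNA.

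At day 24 the groups were apart. *NEDD4* scored 52 and 52 in WT, 1009 and 822 for KO#2, and 302 and 507 for KO#10. All 4 KO libraries were above WT, and both KO#2 libraries lay above both of KO#10. The means were 52.0 ± 0 for WT (SD, n = 2), 916 ± 132 for KO#2 (SD, n = 2) and 405 ± 145 for KO#10 (SD, n = 2). KO was higher than WT by 3.50 on the log2 scale (11.3-fold), KO#2 by 4.10 and KO#10 by 2.89, and KO#2 stood 1.22 above KO#10.

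Within the day 24 libraries, the place of *NEDD4* moved much more than at day 12. It was 1455 and 1451 from the top in WT, where 38 and 39 other genes had the same score. It was 30 and 49 for KO#2, and 188 and 101 for KO#10. In WT 86.4% of the genes scored lower, in KO#2 99.7% and 99.5%, and in KO#10 98.2% and 99.1%. By the size of the KO increase *NEDD4* was in place 8 of the 9289 genes fitted at that day, and in place 3 of the 628 whose mean score was at least 100.

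**Figure D1:**
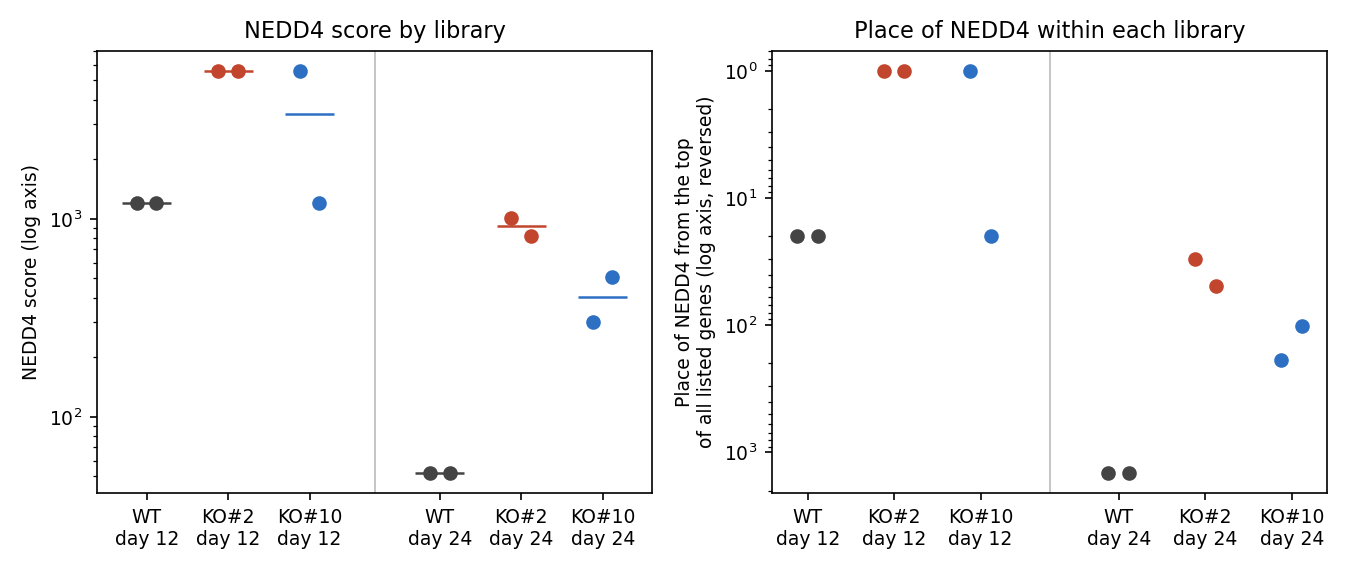
*NEDD4* score (left, log axis) and its place from the top of 10976 genes (right, log axis, reversed) in each of the 12 libraries; points are libraries, replicate 1 on the left of each pair, and bars are the means of 2. WT falls from 1204 to 52 between day 12 and day 24, and all 4 KO libraries of day 24 sit between 302 and 1009.

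*NEDD4* was lower at day 24 than at day 12 in all 3 lines, with no overlap between days in any of them. On the log2 scale it fell by 4.51 in WT (22.7-fold), fell by 2.61 in KO#2 (6.13-fold) and fell by 2.73 in KO#10 (6.61-fold). As 3 of the 4 KO scores of day 12 were the highest the files hold, the falls of the clones are limited by that score and are not compared with that of WT. Among the 633 genes with a mean of at least 100 in WT at day 12, whose median change was -0.22, the fall of *NEDD4* was the ninth largest (place 9). Among the 625 such genes in KO, with a median change of -0.12, it was in place 9, a place that the highest score also limits.

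In all, 12 genes scored at least 1204, the lowest day 12 score of *NEDD4*, in all 6 libraries of day 12, mostly genes of ribosomal proteins and translation factors. Of these, the 11 besides *NEDD4* kept scores of at least 1007 in each day 24 library. That threshold leaves out genes just below it that fell as far. *LINC02503* missed it by a score of 1203 in 1 library, and *LINC00504* and *LINC02895*, at 3030 and 3046 in WT replicate 1, missed it in others.

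The 5 genes with the largest falls in WT were 4 long non-coding RNAs, *LINC00504*, *LINC02895*, *LINC02503* and *LINC00506*, and the protein-coding gene *KIAA1328*. Of the 8 genes that fell more than *NEDD4*, 5 are long non-coding in GENCODE, against 19 of the 633. *LINC02895* had scores of 3046 and 1009 in WT at day 12 and 47 and 36 at day 24, against 3046 and 1009 in each KO clone at day 12. At day 24 it scored 821 and 604 for KO#2 and 243 and 278 for KO#10. It was thus highest in KO#2, lower in KO#10 and lowest in WT at day 24, the same order as *NEDD4*, while at day 12 it had the same pair of scores in all 3 lines. *LINC02503* scored 1203 or 1204 in all 6 libraries of day 12, 33 and 25 in WT at day 24, 1009 and 452 for KO#2, and 84 and 136 for KO#10.

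Of these 5 genes, 4 were called higher in KO at day 24. A call here is an adjusted *p*-value under 0.05 (limma, Benjamini-Hochberg) with at least a 2-fold change, which 4.22% of the 9289 genes tested reached upward and 3.79% downward. The log2 fold changes were 3.15 for *LINC00504* (SE 0.66, adjusted *p* = 0.0306), 3.35 for *LINC02895* (SE 0.50, adjusted *p* = 0.0196), 2.72 for *LINC00506* (SE 0.71, adjusted *p* = 0.0471) and 3.00 for *KIAA1328* (SE 0.64, adjusted *p* = 0.0315). That of *LINC02503* was 3.18 (SE 0.93, adjusted *p* = 0.0579). These genes were picked by their fall in the same WT day 24 libraries that the KO contrast uses, so the 2 sets of values are not independent. None of the 5 was called at day 12, where their log2 fold changes ran from -0.88 to 0.00. Their adjusted *p*-values there lay between 0.443 and 1.0, and *LINC00504* was called lower without WT day 12 replicate 2 (-1.67, adjusted *p* = 0.0462).

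The number of calls at day 24 rested on single libraries. The 392 higher and 352 lower calls became 12 and 11 without WT replicate 1, 1 and 1 without WT replicate 2, and 145 and 118 without KO#2 replicate 1. They became 5 and 10 without KO#2 replicate 2, 722 and 624 without KO#10 replicate 1, and 6 and 17 without KO#10 replicate 2. Every KO against WT call at day 24 that is named here for a gene outside the marker lists, *JUN* included, was lost in at least 1 of these 6 fits. The day 24 difference of *NEDD4* itself, a log2 difference with no test, lay between 3.24 and 3.82 whichever library was left out. It cannot be set against the lost calls, which rest on adjusted *p*-values. The log2 fold change of *LINC02895* was still 3.16 to 3.55 in the fits that lost its call. Both WT scores of *NEDD4* were 52, so leaving out a WT library could not change its difference.

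The genes whose scores over the 12 libraries followed *NEDD4* most closely, by Pearson's r of log2(score + 1) among 9951 genes, were *CCDC142* (r = 0.98), *TUT4*, *C2orf68*, *DNHD1*, *PAFAH1B1*, *MZF1*, *NNT-AS1* and *ARHGEF40* (r = 0.96). The points share line and day, and 299 genes reached an r of at least 0.9, so these names head a broad group. Only 2 of the 8 were also among the 8 with the highest Spearman's rho. *NNT-AS1*, an antisense RNA whose reads may not be told apart from those of *NNT*, scored 128 and 122 in WT at day 12 and 17 and 19 at day 24. In KO it scored 118 to 172 at day 12, and at day 24 84 and 59 for KO#2 and 39 and 51 for KO#10. *PAFAH1B1*, the lissencephaly gene LIS1, which works with dynein in neuronal migration, scored 78 and 71 in WT at day 12, 50 and 49 in WT at day 24, and 57 to 78 in KO at day 24. *TUT4*, which adds uridines to RNA, scored 69 and 76 in WT at day 12 and 28 and 22 at day 24, with 38 to 77 in KO at day 24. Like *NEDD4*, all 8 were lowest in the 2 WT libraries of day 24.

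At the other end were *RPF1*, a ribosome assembly factor, *MBNL3*, a splicing factor, and *EZR*, which links membranes to actin in epithelia (r of -0.98, -0.97 and -0.97). *EZR* scored 23 and 28 in WT at day 12, 76 and 82 in WT at day 24, and 25 to 43 in KO at day 24. *JUN* had an r of -0.05 with *NEDD4*.

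**Figure D2:**
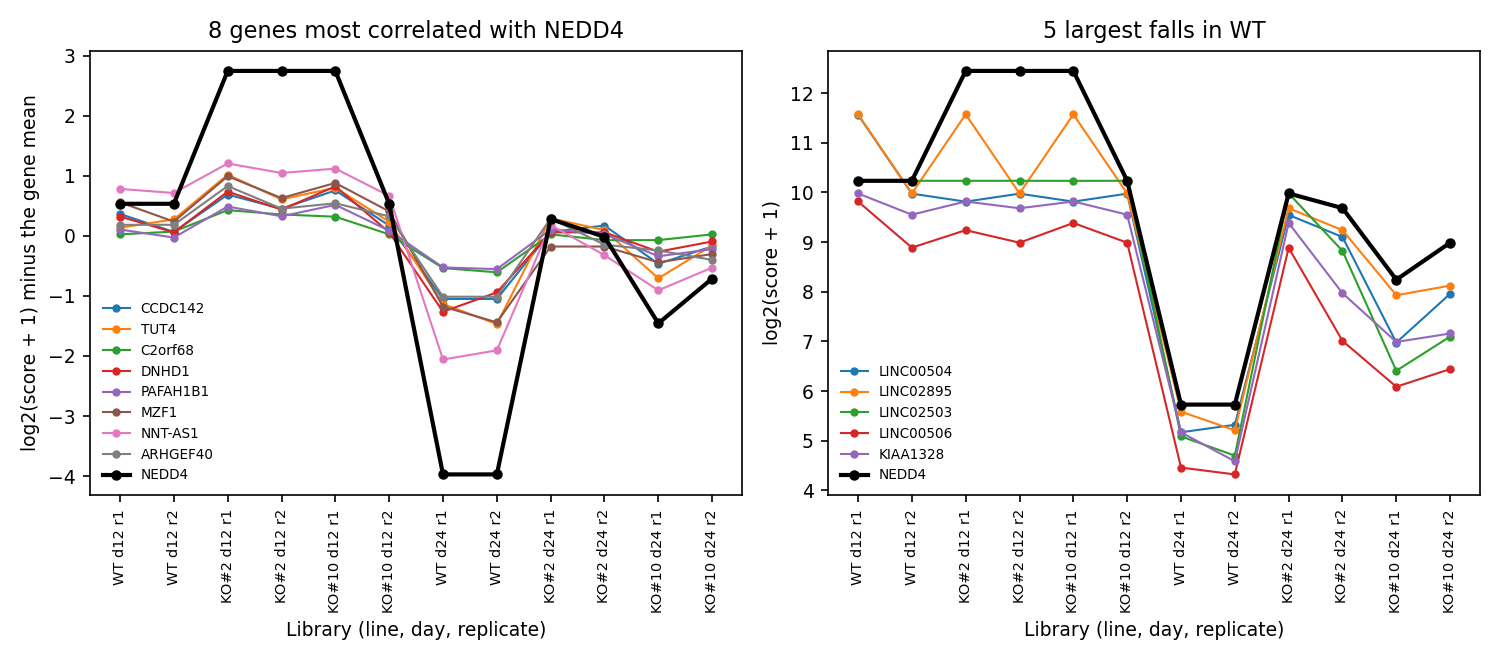
Left: log2(score + 1) of *NEDD4* (black) and of the 8 genes most correlated with it, each minus its mean over the 12 libraries. Right: log2(score + 1) of *NEDD4* and of the 5 genes with the largest falls in WT; library names give line, day (d) and replicate (r), and all 6 genes of the right panel are lowest in the 2 WT libraries of day 24.

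*NEDD4* belongs to a family of ligases with the same plan of C2, WW and HECT domains. Of its 9 members, 8 were in the files (*HECW2* was not analysed here), and 6 besides *NEDD4* passed the filter on low scores. None of the 6 was called in any of the 5 contrasts (limma), where 0 to 3 of them had an unadjusted *p* under 0.05. In KO against WT at day 24, 1878 of all 9289 genes tested reached that *p* upward and 1631 downward (limma). In KO against WT at day 24 their median log2 fold change was 0.11, against 0.01 over all genes.

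*NEDD4L*, the closest relative, which is known for the turnover of the epithelial sodium channel, scored 34 and 27 in WT, 26 and 21 for KO#2 and 26 and 26 for KO#10 at day 12. At day 24 it scored 23 and 20 in WT, 40 and 41 for KO#2, and 19 and 32 for KO#10. The KO#2 libraries were the highest and the KO#10 libraries lay on both sides of WT. Its log2 fold change at day 24 was 0.54 (SE 0.30, adjusted *p* = 0.23 by limma), and over the alternatives the adjusted *p* ran from 0.0184 to 0.591. The lowest of these was reached without KO#10 replicate 1, with a change still under 2-fold. Without that library the interaction of genotype and day was called for *NEDD4L* (1.06, adjusted *p* = 0.0136, against 0.206 with it).

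*WWP1*, a ligase of the same family, had lower scores in KO at day 24. It scored 29 and 30 in WT, 14 and 17 for KO#2, and 18 and 17 for KO#10. The log2 fold change was -0.81 (SE 0.14, adjusted *p* = 0.0227 by limma), short of 2-fold and so not a call, and the adjusted *p* ran to 0.245 over the alternatives. At day 12 its scores were 35 and 34 in the WT libraries and 18 to 46 in KO, and its fall in KO between the days was called only without KO#10 day 12 replicate 2 (-1.09, adjusted *p* = 0.000491, against -0.85 with it).

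*SMURF2*, which marks receptors and SMADs of the TGF-β pathway, scored 8 to 11 in the 6 libraries of day 12 and 15 to 20 in those of day 24. Its change with day was 0.58 in WT (SE 0.18, adjusted *p* = 0.0311) and 0.81 in KO (SE 0.13, adjusted *p* = 0.000666), also short of 2-fold. *ITCH*, a regulator of immune signalling, scored 15 to 25 over all 12 libraries, *WWP2* 10 to 18 and *SMURF1* 7 to 15. *HECW1*, expressed in neurons, scored 0 to 2 at day 12, 1 and 1 in WT at day 24, and 2 to 7 in KO at day 24, too low to be fitted. Their r with *NEDD4* over the 12 libraries, *HECW1* left out, lay between -0.60 for *SMURF2* and 0.57 for *SMURF1*.

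**Figure D3:**
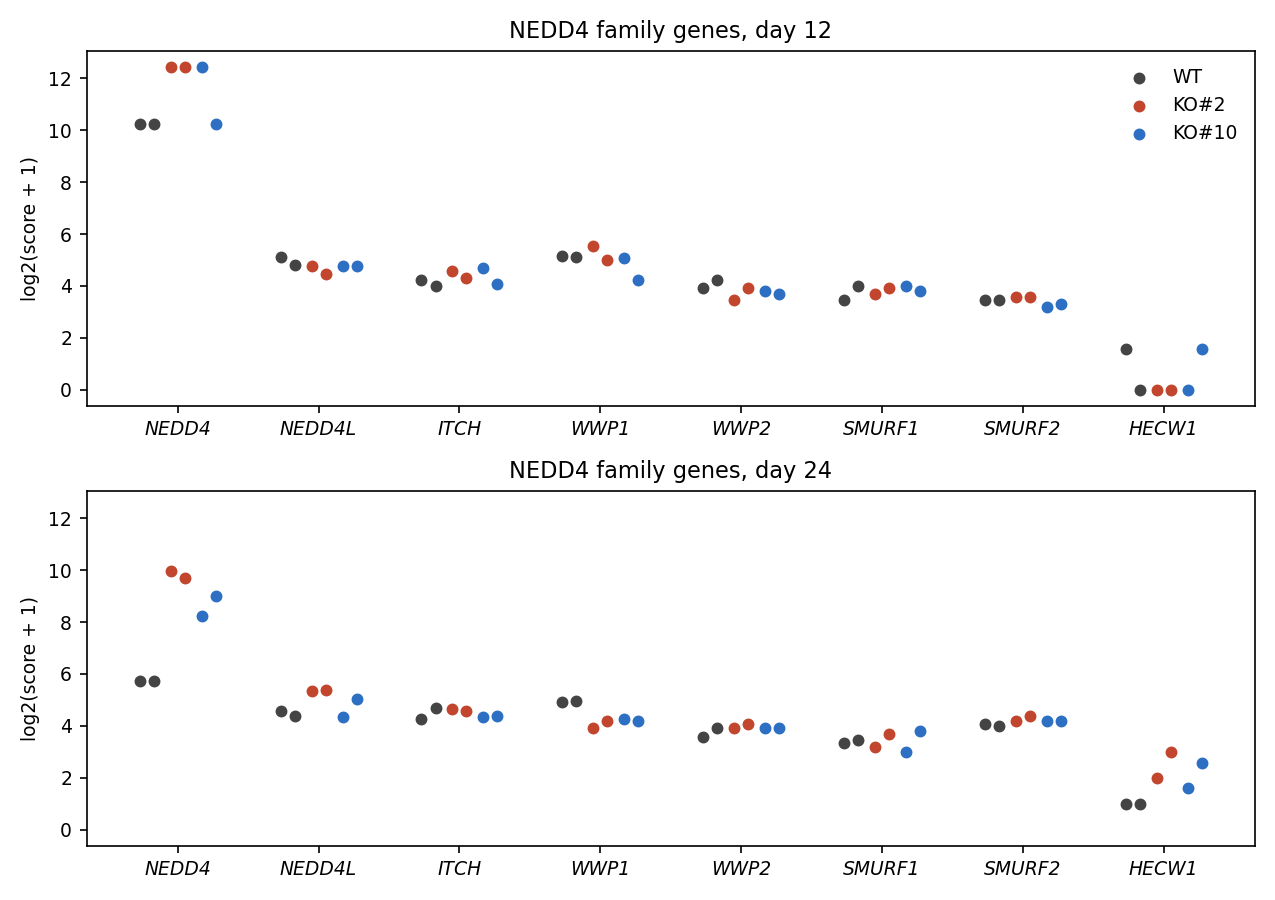
log2(score + 1) of the 8 measured *NEDD4* family genes at day 12 (top) and day 24 (bottom); each point is a library, coloured by line, with 2 per line and day. *NEDD4* has the highest score of the 8 in every library, on a scale not stated to be per length, and the others lie close together, with *HECW1* lowest.

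Besides *NEDD4*, other genes took a NEDD name from the same mouse screen, and they were listed together with *NEDD4L*. *NEDD8*, a ubiquitin-like modifier, scored 55 to 70 at day 12 and 81 to 118 at day 24. Its log2 change with day was 0.66 in WT (SE 0.18, adjusted *p* = 0.0163) and 0.59 in KO (SE 0.12, adjusted *p* = 0.00336), short of 2-fold. None of the 5 fitted genes of that list was called in any of the 5 contrasts (limma), with 1 at an unadjusted *p* under 0.05 in KO against WT at day 24. Over all 9289 genes, 1878 reached that *p* upward and 1631 downward.

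Over all genes, 4.22% were called higher in KO at day 24 and 3.79% lower. Of 17 measured ligases with a HECT domain outside the family, 2 were called higher and none lower. These were *HECTD4*, with scores of 9 and 9 in WT, 28 and 25 for KO#2 and 14 and 21 for KO#10 (log2 fold change 1.16, SE 0.26, adjusted *p* = 0.0353, 0.00537 to 0.267 over the alternatives), and *HERC2*, a ligase of DNA repair. *HERC2* scored 23 and 19 in WT, 50 and 68 for KO#2 and 35 and 88 for KO#10 (1.40, SE 0.34, adjusted *p* = 0.0402, 0.00918 to 0.299). The scores of both genes did not overlap between WT and KO, a trait whose share over all genes is not given here. The median of the 17 was 0.22. *TRIP12*, *UBE3A* (the ligase lost in Angelman syndrome) and *HUWE1*, the highest of the list, had log2 fold changes of 0.49, 0.22 and 0.34 and adjusted *p*-values of 0.126, 0.503 and 0.229.

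In WT the share of genes called from day 12 to day 24 was 7.12% upward and 7.94% downward, and in KO 5.89% and 5.59%. Without WT day 12 replicate 1, the 709 and 790 calls of WT became 382 and 418, and without WT day 24 replicate 2 they became 400 and 506. *HECTD4* fell in WT (log2 fold change -1.02, adjusted *p* = 0.0151), and *HERC3* rose in KO (2.62, adjusted *p* = 0.00268). The call of *HECTD4* was lost without WT day 12 replicate 1 (adjusted *p* = 0.112) and without either WT library of day 24 (0.0599 and 0.0714).

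Adaptors and partners bring NEDD4 to its substrates. Of 14 fitted, none was called between KO and WT at day 24 (limma, 4 at an unadjusted *p* under 0.05), and their median was 0.03. Over all 9289 genes, 1878 reached that *p* upward and 1631 downward. *ARRDC3*, an arrestin-like adaptor, rose with day in both genotypes, from 28 to 53 at day 12 to 90 to 750 at day 24. Its log2 change was 2.66 in WT (SE 0.79, adjusted *p* = 0.0261) and 2.38 in KO (SE 0.56, adjusted *p* = 0.00606). The WT call was lost without WT day 12 replicate 1 (adjusted *p* = 0.146), WT day 12 replicate 2 (0.0558) or WT day 24 replicate 1 (0.167). In each line the first replicate of day 24 was the higher. *WBP2*, a WW-domain binding protein, rose in WT (1.04, adjusted *p* = 0.0144), a call lost without WT day 12 replicate 2 (0.0855) or WT day 24 replicate 2 (0.136). *LAPTM4B*, *LAPTM4A* and *TXNIP*, the highest of the others, were not called in any contrast. With the replicate number as a block, *TXNIP* was called higher at day 24 in WT (1.14, adjusted *p* = 0.0231, against 0.0911 without it).

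Of 20 reported substrates, 17 were fitted at day 24. Among those called, *MDM4*, a partner of p53, was higher in KO and *KDR*, a receptor of endothelial cells, lower. *MDM4* scored 20 and 17 in WT, 58 and 53 for KO#2 and 29 and 36 for KO#10 (log2 fold change 1.16, SE 0.29, adjusted *p* = 0.0416, to 0.299 over the alternatives). Its scores did not overlap between WT and KO, a trait whose share over all genes is not given here. *KDR* scored 24 and 21 in the WT libraries and 1 to 8 in KO (-3.01, SE 0.69, adjusted *p* = 0.0357, to 0.0927).

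*MDM2* and *NOTCH1*, both among the highest of the list and not called in any contrast, had day 24 log2 fold changes of -0.40 (adjusted *p* = 0.301) and 0.90 (adjusted *p* = 0.156), and *NOTCH1* was called without KO#10 replicate 1 (1.21, adjusted *p* = 0.0163). The median of the 17 was -0.05.

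Of the substrates, 2 growth factor receptors fell with day. *FGFR1* went from 158 to 172 in WT at day 12 to 59 and 80 at day 24 (log2 fold change -1.25, SE 0.17, adjusted *p* = 0.000719), and from 116 to 149 in KO to 52 to 60 (-1.21, SE 0.12, adjusted *p* = 3.69e-05). *IGF1R* fell in WT from 43 and 43 to 19 and 23 (-1.01, adjusted *p* = 0.00993), a call lost without WT day 12 replicate 1 (0.0571) or WT day 24 replicate 1 (0.0658). *MDM4* fell in WT (-1.90, adjusted *p* = 0.0036). *GRIA1*, a glutamate receptor subunit, fell in WT (-1.90, adjusted *p* = 0.0146) and in KO (-1.34, adjusted *p* = 0.0105). Its WT call was lost without WT day 12 replicate 1 (0.104) or WT day 24 replicate 2 (0.0863), and in KO its change came under 2-fold without KO#10 day 24 replicate 1 (-0.99).

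Of 14 genes of ubiquitin and of its E1 and E2 enzymes, none was called in KO against WT at day 24 (limma, 5 at an unadjusted *p* under 0.05), with a median of -0.14. Over all 9289 genes, 1878 reached that *p* upward and 1631 downward. *UBE2E3*, an E2 enzyme, rose with day from 88 and 167 to 290 and 356 in WT (log2 fold change 1.40, SE 0.31, adjusted *p* = 0.0068) and from 110 to 154 to 370 to 668 in KO (2.00, SE 0.22, adjusted *p* = 6.28e-05). Its WT call was lost without WT day 12 replicate 1 (0.0694) or WT day 24 replicate 2 (0.0562). The ubiquitin genes *UBB* and *RPS27A* had day 24 log2 fold changes of 0.44 and -0.24, neither of them called.

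Of 23 fitted genes of endosomal sorting, the route that ubiquitinated receptors take, none was called between KO and WT at day 24 (limma, 9 at an unadjusted *p* under 0.05), with a median of -0.06. Over all 9289 genes, 1878 reached that *p* upward and 1631 downward. *TSG101*, an ESCRT-I subunit that reads ubiquitin, rose with day in WT (1.02, adjusted *p* = 0.0169). That call was lost without WT day 12 replicate 1 (0.165) or WT day 24 replicate 2 (0.107). *CHMP3*, of ESCRT-III, rose with day in KO (1.52, adjusted *p* = 0.000716). *RAB11A*, *PDCD6IP* and *CHMP2A*, the highest of the others, were not called in any contrast.

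Of 20 fitted genes of insulin and PI3K signalling, *PIK3R3* was called higher in KO at day 24 and *IGF2* lower, and the median was 0.30. These calls are near the shares over all genes, 4.22% higher and 3.79% lower. *PIK3R3*, a regulatory subunit of PI3K, scored 22 and 10 in the WT libraries and 28 to 41 in KO (log2 fold change 1.12, SE 0.30, adjusted *p* = 0.0476, 0.0369 to 0.299 over the alternatives). *IGF2*, a fetal growth factor, scored 200 and 158 in WT, 26 and 13 for KO#2 and 70 and 10 for KO#10 (-2.94, SE 0.69, adjusted *p* = 0.0377, to 0.267). *IGF2* rose with day in WT (4.32, SE 0.92, adjusted *p* = 0.0059), where *AKT2* fell (-1.08, adjusted *p* = 0.00319), a call lost without WT day 12 replicate 1 or WT day 24 replicate 2 (-0.84 and -0.98). *PIK3CB* fell in KO (-1.33, adjusted *p* = 0.00166). *AKT1* and *TSC2*, both among the highest of the others, had day 24 values of 0.47 and 0.67, under 2-fold.

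At day 12 none of the fitted genes of these lists was called between KO and WT (limma, 0 to 3 of each list at an unadjusted *p* under 0.05). Over all 8885 genes, 529 reached that *p* upward and 451 downward. The share called over all 8885 genes was 0.0225% upward and 0.0675% downward, which is 2 and 6 genes, or 36 and 35 with the replicate number as a block. Of the interaction of genotype and day, 0.452% of the genes were called upward and 0.854% downward (45 and 85 genes, or 158 and 210 with the block), and no gene of the lists above was among them. Without KO#10 day 24 replicate 1 there were 419 and 497. Among these were *NEDD4L* (log2 value 1.06), *HECTD4* (1.25), *HERC1* (1.10) and *HERC2* (1.24) upward, and *KDR* (-1.97), *UBE2E2* (-1.68) and *IGF2* (-3.97) downward, with adjusted *p*-values from 0.00863 for *HERC1* to 0.0417 for *UBE2E2*. Without WT day 24 replicate 1, *PIK3R3* (1.48, adjusted *p* = 0.025), *CHMP2B* (-1.30, 0.0358) and *PIK3CB* (-1.90, 0.0477) were called. With the block, *IGF2* was called (-3.43, adjusted *p* = 0.0441, against 0.117 without it).

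The files list 8 other genes within 1 Mb of *NEDD4* on chromosome 15, and 1 of them was called in KO against WT at day 24, in the opposite direction. *PRTG*, protogenin, a receptor of the early neural tube 83.8 kb away, scored 426 and 472 in the WT libraries and 604 to 820 in KO at day 12. At day 24 it scored 102 and 72 in WT, 17 and 25 for KO#2, and 33 and 26 for KO#10. It was thus lower in every KO library, where *NEDD4* was higher (log2 fold change -1.76, SE 0.27, adjusted *p* = 0.0196, 0.00653 to 0.231 over the alternatives). Its change with day was -2.37 in WT (adjusted *p* = 0.000286) and -4.71 in KO.

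*PYGO1*, a co-activator of Wnt signalling 238 kb away, scored 5 and 5 in the WT libraries and 9 to 19 in KO at day 24 (1.27, SE 0.34, adjusted *p* = 0.0501 by limma), just outside the threshold. *TEX9* scored 12 and 10 in the WT libraries and 19 to 21 in KO (0.83, SE 0.14, adjusted *p* = 0.0207), under 2-fold. *RFX7*, 93.6 kb away on the other side, scored 8 and 9 in the WT libraries and 7 to 14 in KO (0.17, SE 0.29, adjusted *p* = 0.681). *RSL24D1*, *CCPG1*, *ZNF280D* and *TCF12* had log2 fold changes between -0.91 and 0.49, and none was called.

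**Figure D4:**
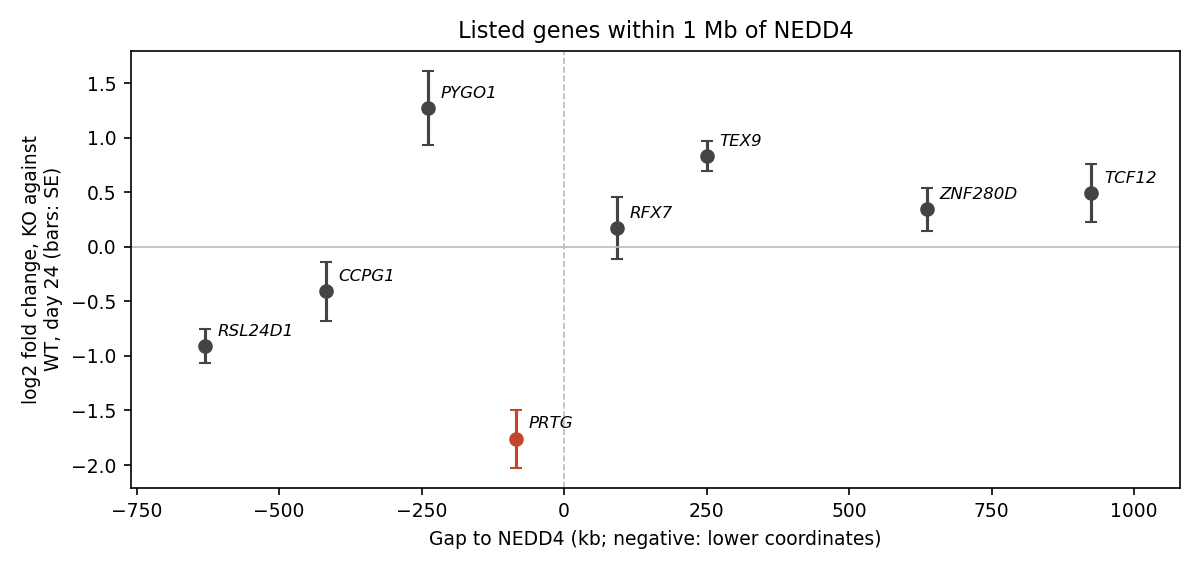
log2 fold change of KO against WT at day 24 with its SE for the 8 listed genes within 1 Mb of *NEDD4*, against the gap in kb to *NEDD4* (dashed line); red marks the 1 gene called. *PRTG*, the nearest gene, lies at -1.76, and the others lie between -0.91 and 1.27.

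Scores of cell type markers differed between WT and KO as well. The labels give embryonic stem cells as the cell type, and markers of neurons and of other tissues were present. At day 24, 4 of 12 neuron markers and 3 of 12 neural progenitor markers were called higher in KO, and 8 of 8 fitted pluripotency markers, 8 of 8 epithelium markers, 3 of 6 endoderm markers and 1 of 7 mesenchyme markers were called lower. Their median log2 fold changes were 1.82, 1.15, -3.58, -3.40, -5.06 and -2.63 in that order, against 0.01 over all genes. Over all genes, 4.22% were called higher and 3.79% lower. Each of these marker calls was lost under at least 1 alternative, with a highest adjusted *p* between 0.0533 for *POU5F1* and 0.331 for *MAP2*. In bulk RNA, fewer cells of a type and less RNA per cell cannot be told apart.

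At day 24 the summed scores of these lists, mesenchyme aside, did not overlap between WT and KO. The share of all genes without such overlap is not given here, so this does not set the lists apart. Within KO no list kept the order of the *NEDD4* scores. The 12 neuron markers summed to 374 and 198 in WT, 1770 and 2171 for KO#2, and 460 and 1508 for KO#10. The 6 endoderm markers in the files summed to 6726 and 6425 in WT, 68 and 1 for KO#2, and 1099 and 2 for KO#10. The 7 mesenchyme markers summed to 2487 and 2097 in WT, 170 and 137 for KO#2, and 2904 and 155 for KO#10. KO#10 replicate 1, the KO library with the lowest *NEDD4* score, 302, thus had the lowest neuron sum and the highest endoderm and mesenchyme sums of the KO libraries. KO#10 replicate 2 had sums like those of KO#2 in these lists, and its *NEDD4* score, 507, was still below both KO#2 libraries and above WT. Without KO#10 replicate 1 the *NEDD4* difference between KO and WT was 3.82.

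The pluripotency markers summed to 509 and 969 in the WT libraries and 58 to 88 in KO, and the epithelium markers to 705 and 946 in WT, 42 to 68 in KO#2, and 258 and 51 in KO#10. The progenitor markers summed to 823 and 611 in the WT libraries and 1118 to 1425 in KO. At day 12, when *NEDD4* was highest, the endoderm sums were 1 to 17 in all 6 libraries and the mesenchyme sums 34 to 61. Other lists differed by genotype at that day, at which 0.0225% of all genes were called higher in KO and 0.0675% lower. The pluripotency markers summed to 960 and 1157 in the WT libraries and 563 to 641 in KO, and the progenitor markers to 670 and 840 in the WT libraries and 1049 to 1220 in KO. Neither list overlapped between the groups, a trait whose share over all genes is not given here. Of the 8 fitted pluripotency markers, 3 were called lower in KO at day 12, which were *POU5F1* (-2.76, adjusted *p* = 0.000602, to 0.0206 over the alternatives), *TDGF1* (-4.01, 0.00641, to 0.0717) and *DNMT3B* (-1.52, 0.0389, to 0.557). Of the markers not called at that day, *L1TD1* (-1.03), *ZFP42* (-1.90), *EPCAM* (-1.39), *CDH1* (-1.54) and *SOX3* (1.04) had a lowest adjusted *p* over the alternatives of 0.0449, 0.0407, 0.0366, 0.0229 and 0.0229 (limma). The neuron sums of day 12 were 196 and 297 in the WT libraries and 302 to 389 in KO, below all 4 day 24 sums of KO. The part of cell makeup in the *NEDD4* values was not tested.

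**Figure D5:**
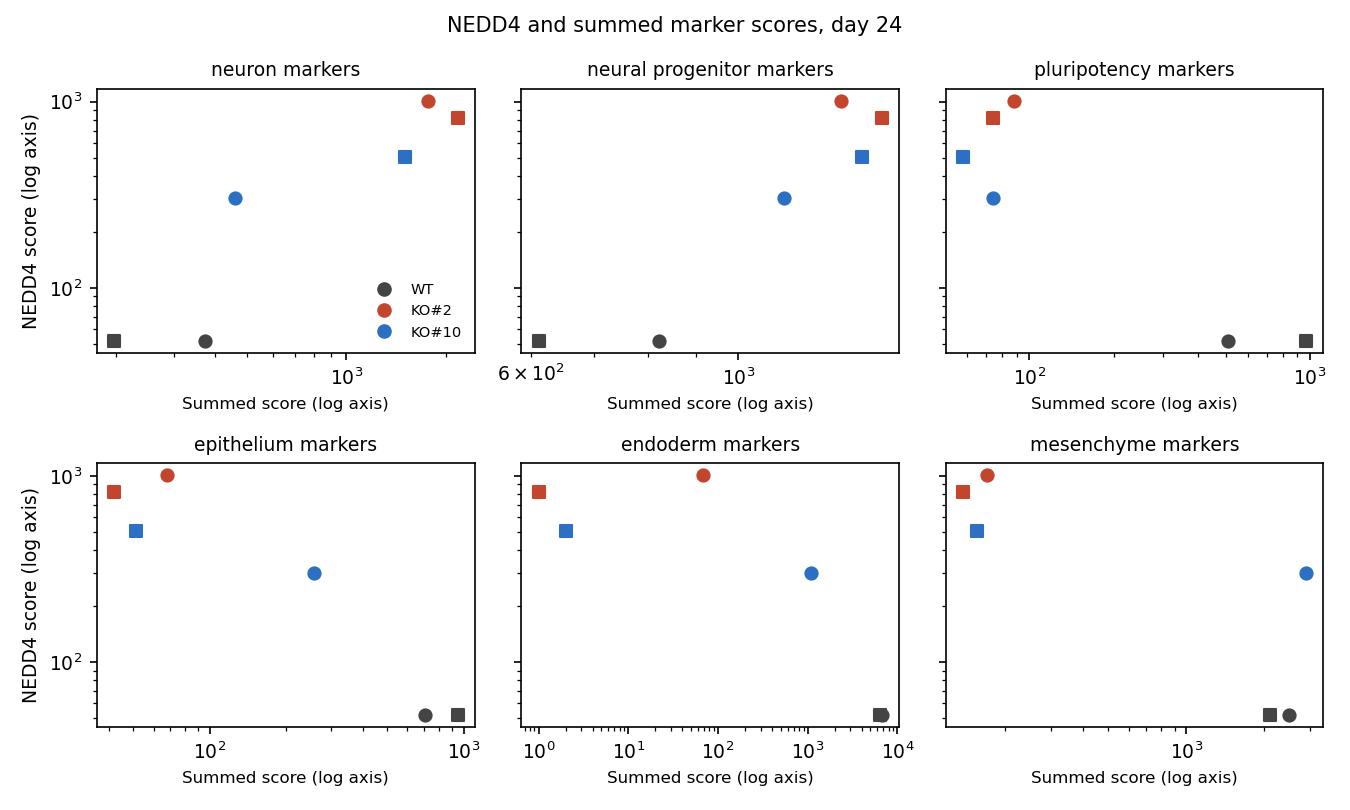
*NEDD4* score (log axis) against the summed score of each marker list (log axis) in the 6 libraries of day 24, coloured by line; circles are replicate 1 and squares replicate 2. Both WT libraries have a *NEDD4* score of 52, and the KO library at 302 is the one whose mesenchyme sum, 2904, is as high as in WT.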

How the data were processed

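Total RNA of COs was sequenced in 12 libraries. The authors deposited a whole-number score per gene for each library, which is not a raw count: all libraries share nearly the same 269 to 271 distinct values and totals of 473637 to 483149, so the depth is unknown and no counting interval is given. The submitters' processing notes name bcl2fastq, RSEM, Bowtie2 and the build mm10, while the gene IDs are human and the intervals fit GRCh38. The normalization is not given in the sources used here.

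The members and gene lists were chosen with earlier results of these data known. Groups came from the sample labels. Scores were taken as log2(score + 1), and genes that reached 10 in 2 or more of the libraries compared were fitted with limma 3.58.1 (R 4.3.3; lmFit, eBayes with trend) and Benjamini-Hochberg adjustment over all genes fitted. The contrasts were KO against WT within each day, day 24 against day 12 within WT and within KO, and their interaction. The fit was tested on simulated data. Named were *NEDD4*, *JUN* and the measured *NEDD4* family. From each other list came genes called in a contrast (at most 4 each) and the 3 further members with the highest mean. The 8 genes most and 3 least correlated with *NEDD4*, the 5 largest WT falls and genes within 1 Mb completed the set. Some genes that the rule names are not reported here. Alternatives were no filter, a pseudocount of 0.1, no variance trend, the replicate number as a block, and each library left out. At day 12, deviations from the group means went together in libraries that the labels give the same replicate number (r across genes of 0.598, 0.428 and 0.459), so the numbers pair the libraries of that day. The main fits have no block, and the day 12 counts are given with and without it. At day 24 the r were 0.346, 0.212 and -0.106. Annotation came from GENCODE release 29 and RefSeq (GRCh38.p14). Python 3.11.15, pandas 2.3.3 and matplotlib 3.10.9 wrote the tables and figures.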

Additional observations from a re-analysis of the deposited data

Results flagged for a closer look

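In groups of 4 KO libraries, a library apart from 3 equal ones was flagged for 5 genes. These were *NEDD4* at day 12, *NEDD4L* at day 12, *WWP2* at day 24, *SMURF2* at day 24 and *HECW1* at day 12. In each case the gap divided by the range was 1.0, because the other 3 libraries had equal scores. For *NEDD4* it was KO#10 replicate 2, at 1204 against 5585. For *NEDD4L* it was KO#2 replicate 2, at 21 against 26, for *WWP2* KO#2 replicate 2, at 16 against 14, for *SMURF2* KO#2 replicate 2, at 20 against 17, and for *HECW1* KO#10 replicate 2, at 2 against 0. For *NEDD4* those 3 stood at the highest score the files hold, so the ratio is a description and no test. These are 5 of 16 groups examined. Chance marks about 1 in 20 where values do not tie. Whole-number scores often tie, so that share is no measure for these groups.

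Of 140 fitted genes, from the lists without the markers and the other named sets, the interaction of genotype and day was called for 2 (limma). For *PRTG* the change from day 12 to day 24 was lower in KO than in WT by a log2 value of -2.33 (adjusted *p* = 0.0071). For *LINC00504* it was higher in KO by 4.03 (adjusted *p* = 0.0367). The call of *PRTG* was lost without WT day 12 replicate 1 (-2.26, adjusted *p* = 0.0711). The call of *LINC00504* was lost in 9 of the 12 fits that left out a library, with adjusted *p*-values of 0.0587 to 0.189, and was kept without WT day 12 replicate 2, KO#2 day 24 replicate 1 or KO#10 day 24 replicate 1.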

How the results depend on the processing

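No called result changed sign under an alternative. The *NEDD4* differences between KO and WT lay between 3.24 and 3.82 at day 24 and between 1.47 and 2.21 at day 12 with each library left out, and its change with day was -4.51 in WT in each of those fits and -3.22 to -2.34 in KO. With a pseudocount of 0.1 the WT change was -4.53. By percentile of rank, the KO difference was 12.7 percentage points at day 24 and 0.0911 at day 12. With each library left out, KO against WT at day 24 gave 1 to 722 calls higher and 1 to 624 lower, and at day 12 0 to 2 higher and 1 to 2 lower (limma; at least 313 genes higher at an unadjusted *p* under 0.05). The WT day contrast gave 382 to 698 higher and 418 to 809 lower, and the interaction 1 to 419 higher and 10 to 497 lower. At day 12 the fit with no filter gave 0 higher (646 at an unadjusted *p* under 0.05) and 3 lower, and the fit with no variance trend 13 lower. With the replicate block, day 12 gave 36 higher and 35 lower and the interaction 158 and 210. At day 24 the block ended the calls of *MDM4*, *PIK3R3*, *TUT4* and *LINC00506* in KO against WT (adjusted *p* = 0.0574, 0.0516, 0.0537 and 0.0595) and added *PYGO1* (0.0381). The cause of these shifts was not tested. Of 7680 values of single genes under an alternative, 7485 kept their call, 136 lost it and 59 gained it. With 2 WT libraries a day, and scores that hold no depth, a value missing the threshold does not show that lines are alike.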
